A study of Octopus bimaculoides with 6 samples.

Results

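The tip of the first left arm of an adult female Octopus bimaculoides (OB-9) was compared with the tip of the same arm of an adult male (OB-2). Each tip was taken within 1.5 cm of the arm end and held skin, sucker, muscle and nerve together, and each is 1 library from 1 wild-caught, untreated animal that was euthanised in ethanol. The same arm of a second adult male (OB-5), cut into a distal, a medial and a proximal section at 1.5, 3.5 and 5.5 cm, and hatchling material of 30 dpf, labelled male, served for orientation, also with 1 library each. RNA depleted of ribosomal RNA was sequenced and quantified per annotated transcript. Of the 38556 coding targets among the 40327 quantified, 19764 had at least 20 estimated counts in either tip and were compared. They were measured as coding TPM, which is the TPM recomputed over coding targets alone, and differences are log2 ratios of coding TPM + 1, female tip over male tip. Because sex and animal change together and neither tip has a replicate, a difference between the tips has no replicate check, no test was run, and sex and individual cannot be told apart.

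An octopus arm carries skin with chromatophores, suckers lined by chemosensory and mechanosensory cells, dense muscle and an axial nerve cord. Male octopuses transfer sperm with a specialised arm, the hectocotylus. In a piece that holds all of these tissues, fewer cells of a type and less RNA per cell cannot be told apart.

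Most coding transcripts had similar levels in the tips. The median log2 ratio was 0.14, with quartiles at -0.14 and 0.44, and Pearson's r across the 19764 transcripts was 0.909, as a description over transcripts that share libraries. Against the distal section, r was 0.861 for the female tip and 0.861 for the male tip, while the medial and proximal sections of 1 arm reached 0.970. The female tip was at least 2-fold higher for 1301 transcripts (6.58%) and at least 2-fold lower for 696 (3.52%). Between the medial and proximal sections 1.99% were 2-fold higher and 2.14% 2-fold lower in the medial section. How far higher transcripts outnumbered lower ones in the female tip changed with the scaling. TMM, which trims extreme ratios before libraries are scaled, moved the median log2 ratio to -0.04, and 932 transcripts were then higher and 898 lower. All of the 932 were among the 1301. Values just inside and just outside the limit of 1 were 1.0003 and 0.9997 above, and -1.0002 and -0.9988 below.

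**Figure D1:**
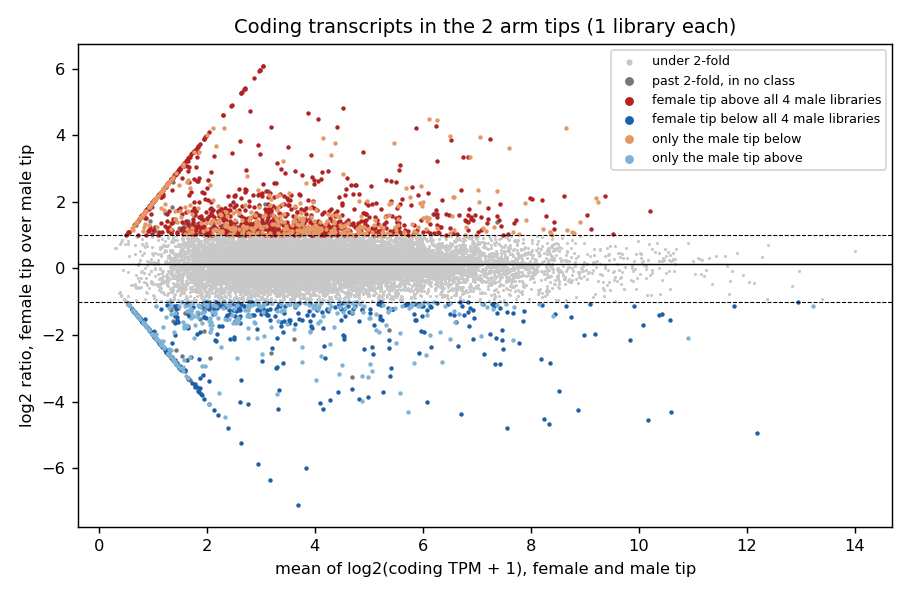
Each point is 1 of 19764 coding transcripts, with the mean of log2(coding TPM + 1) in both tips on the x axis and the log2 ratio of the female over the male tip on the y axis. Dashed lines mark 2-fold and the solid line the median of 0.14, and colours separate transcripts by where the 3 male sections lie. The points along the 2 diagonal edges at the left are transcripts at or near 0 in 1 tip.

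The share past 2-fold did not simply fall with depth. Among transcripts whose higher count was 20 to under 50, 13.8% were past 2-fold between the tips, against 7.25% between the medial and proximal sections. With 200 to under 1000 counts these shares were 7.09% and 1.57%. For the 589 transcripts with 1000 counts or more the tips differed past 2-fold in 13.6%, against 0.57% of 877 such transcripts between the sections. Transcript length made little difference, since the median log2 ratio was 0.13, 0.15 and 0.14 in the 6589 shortest, 6591 middle and 6584 longest transcripts.

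**Figure D2:**
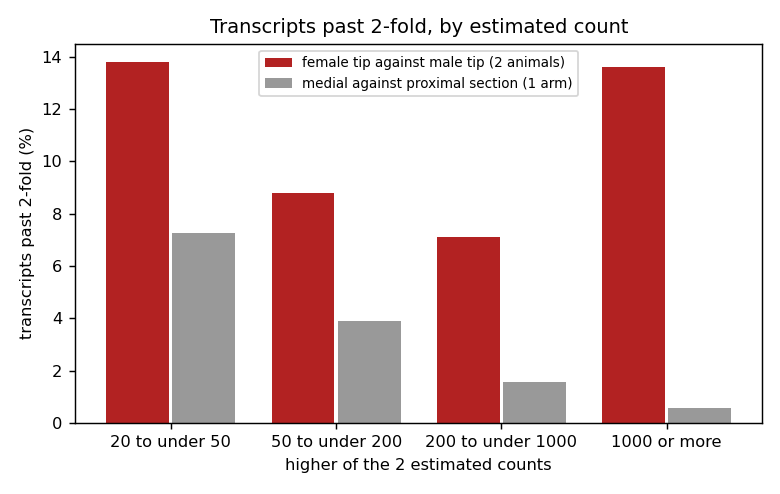
Bars give the percentage of coding transcripts past 2-fold (y axis) by the higher of the 2 estimated counts (x axis), for the female against the male tip and for the medial against the proximal section. The tips differ more often in each class of count, with 13.6% against 0.57% at 1000 counts or more.

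The 3 sections of the second male separated transcripts for which the female tip stood outside all 4 male arm libraries from those for which the male tip alone stood apart. The female tip was above all 4 male libraries for 848 of the 1301 higher transcripts (4.29% of those compared). It was below all 4 for 392 of the 696 lower ones (1.98%). This balance turned with the scaling, since TMM gave 488 above and 539 below, while the deposited TPM gave 417 above and 331 below. Only the male tip stood apart for 391 transcripts, in which it was lower than the female tip and the sections (1.98%), and for 264, in which it was higher (1.34%). A further 62 higher and 40 lower transcripts were in neither class. The classes are less sharp than their names, because in 337 of the 848 the male tip was also below all sections, and in 164 of the 392 it was also above them. The classes in which only the male tip stood apart did not require the female tip to lie within the range of the sections. Ocbimv22014787m, among the 391, had 1224 coding TPM in the female tip and 284 in the male tip, against 3335 to 9545 in the sections. The female tip lay 2-fold beyond each of the 3 sections in 331 transcripts above and 225 below.

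The hatchling was not used in this separation. It was above the female tip in 337 of the 392 transcripts (86%) that were low in the female tip, against 27.2% of all compared transcripts. It was above the female tip in 57 of the 848 (6.72%) that were high there. For the 264 transcripts in which only the male tip was high, the hatchling was nearer to the female tip in 83.3%, and for the 391 in which only the male tip was low, in 71.9%, against 45.1% of all. The members were chosen by the female and male tips' own values, so these shares are a description only.

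Kallisto divides reads that match several transcripts, and an estimated count that is not whole marks such sharing. Counts were whole in both tips for 39.3% of the compared transcripts but for 440 of the 1301 higher (33.8%) and 175 of the 696 lower ones (25.1%). Whole counts do not show that no read was shared, since all shared reads can be given to 1 transcript. Of the 1301 higher transcripts, 140 (10.8%) had a neighbour, with the ID 1 number away, that was 2-fold lower, and of the 696 lower ones 143 (20.5%) had one that was 2-fold higher. The share was smaller where counts were whole, with 11 of 440 higher (2.5%) and 13 of 175 lower transcripts (7.43%). Where counts were not whole it was 129 of 861 (15%) and 130 of 521 (25%). Such neighbours can be isoforms of 1 gene. Each opposite pair is counted from both sides. The shares of 10.8% and 20.5% therefore differ because they are taken of 1301 and of 696 transcripts. The share of all compared transcripts that have a neighbour past 2-fold was not counted.

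The largest block of transcripts low in the female tip had nearly consecutive IDs, Ocbimv22004798m to Ocbimv22004818m. It was picked out after its values were seen, and the files give no gene name for it. Of its 20 IDs, 15 had enough counts, and 14 of these were at least 2-fold lower in the female tip, with lengths of 153 to 2709 bases. The block summed to 1990 coding TPM in the female tip, against 47816 in the male tip. The second male had 31912 distally, 34268 medially and 30077 proximally. The hatchling had 75437. The female tip alone was low, 24-fold below the male tip over the block, and its block held 0.0531% of the coding counts, against 1.14% in the male tip. The 1 compared member that was not past 2-fold was Ocbimv22004812m. Ocbimv22004800m, though lower, was not below all male libraries, with 7.28 coding TPM in the female tip, against 78.6 in the male tip and 6.87 in the distal section.

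Within this block, Ocbimv22004816m, a transcript of 186 bases with whole counts, had 845 coding TPM in the female tip from 140 counts. The male tip had 25985 from 4379 counts, and the sections had 15875, 17383 and 15210. It was 30.8-fold lower in the female tip (95% counting interval 26 to 36.7). The whole-count members Ocbimv22004808m, Ocbimv22004817m and Ocbimv22004807m were 23.5-, 23.8- and 19.8-fold lower in the female tip, against 7.23-fold for Ocbimv22004814m, the smallest difference among those past 2-fold with counts in both tips. In the female tip they had 62.1, 237 and 348 coding TPM, against 1460, 5619 and 6897 in the male tip, and none of their section values came below 908. All intervals in the text are exact Clopper-Pearson intervals of the share of the 2 counts and cover counting error only. PCR copies count as separate reads.

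A second block, Ocbimv22009994m to Ocbimv22010001m, behaved alike at a smaller size. All 8 transcripts had whole counts, and all 8 were below the 4 male libraries in the female tip. Their sum was 465 coding TPM in the female tip, against 2758 in the male tip and 1827, 2942 and 2430 in the other male's sections, with 7109 in the hatchling. The block was thus 5.94-fold lower in the female tip than in the male tip. Their single log2 ratios ran from -2.88 to -1.84. Ocbimv22009995m was below the sections only narrowly, with 7.06 coding TPM in the female tip from 7 counts, against 7.91, 9.87 and 7.92. The male tip had 39.3 of it.

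Another block, Ocbimv22030997m to Ocbimv22031001m, was nearly absent from the female tip. Ocbimv22030997m had 0.516 coding TPM in the female tip from 3 counts, against 23.5 in the male tip from 143 counts, 37.1, 31.8 and 22.3 in the sections and 259 in the hatchling. Ocbimv22030998m had no count in the female tip and 70 in the male tip, with 42, 104 and 90 in the sections, and was at least 22.3-fold lower against a limit of 3 counts in the female library. The 4 compared transcripts of this group summed to 2.85 coding TPM in the female tip and 53 in the male tip. All 4 were below every male arm library.

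In the opposite direction, a stretch from Ocbimv22020499m to Ocbimv22020506m was present in the female tip and nearly missing from the male tip. Its 8 IDs summed to 2712 counts in the female tip, against 4 in the male tip, and 4 of them were compared. Ocbimv22020506m, with whole counts, had 60.7 coding TPM in the female tip and none in the male tip, with 3.16 distally, 19.7 medially and 42.8 proximally in the second male. It was at least 208-fold higher in the female than in the male tip. Ocbimv22020499m, 61.3 coding TPM in the female tip and 0 in the male tip, was at least 74-fold higher, with 1.28, 13.3 and 22.5 in the sections. The stretch was thus also expressed in the other male, least in the distal section and most in the proximal one, and the male tip was the only arm library with fewer than 84 counts. In the hatchling it reached 2192 coding TPM in sum, above all arm libraries, where the female tip had 204.

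A group with almost no signal in any male was Ocbimv22001779m to Ocbimv22001782m. It had 194 coding TPM in the female tip from 351.2 counts, against 1.1 in the male tip from 2.1 counts. The sections had 2.86, 0.685 and 6.18, and the hatchling 6.21. Counts of all 4 members were not whole, so reads were divided among them or with others. Ocbimv22001780m, with no count in the male tip, was at least 49.6-fold higher in the female tip, and Ocbimv22001781m, with 2.1 counts in the male tip, was 35-fold higher (95% counting interval 9.95 to 314).

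**Figure D3:**
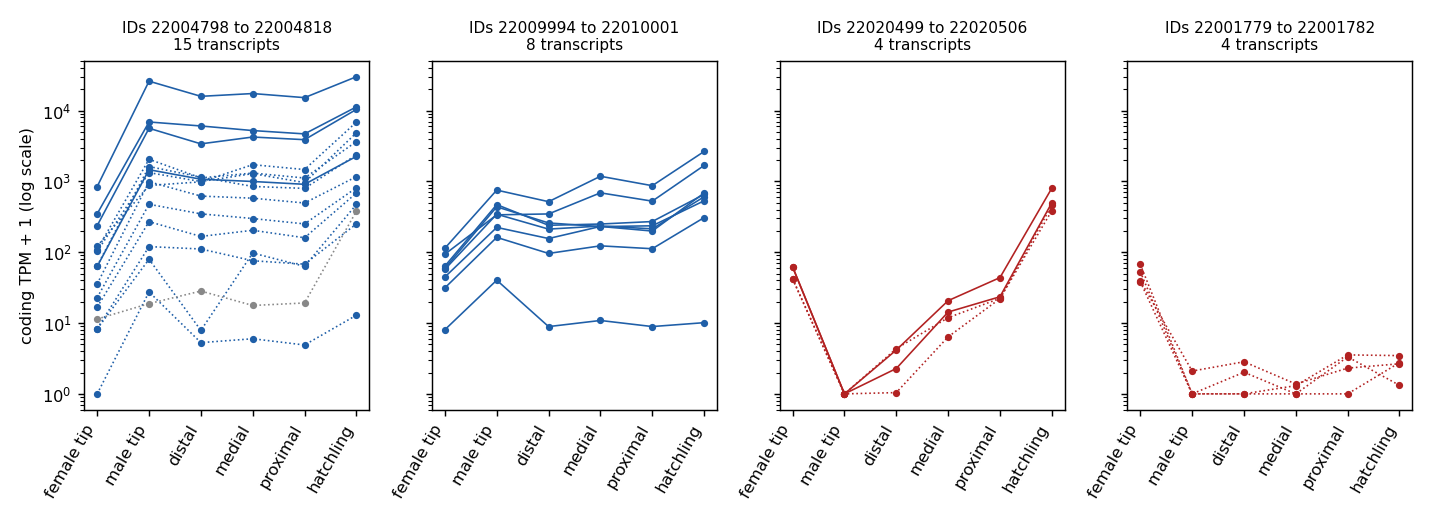
Coding TPM + 1 on a log axis (y) in the female tip, the male tip, the 3 sections of the second male and the hatchling (x), for the compared transcripts of 4 stretches of nearly consecutive IDs. Each line is 1 transcript, dotted where counts were not whole in both tips, blue where lower, red where higher and grey where under 2-fold in the female tip. In the 2 stretches at the left, the female tip is the lowest arm library for most transcripts, with Ocbimv22004800m an exception, and in the stretch ending in Ocbimv22020506m the male tip is at 0.

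In all, 10 runs of at least 4 transcripts with IDs at most 3 apart were higher and 6 were lower in the female tip, holding 44 and 34 transcripts. Not every run set the female apart. Ocbimv22014213m to Ocbimv22014217m, all 5 with whole counts, had 1084 coding TPM in the female tip, against 231 in the male tip, but 1299, 983 and 1124 in the sections, so here the male tip was low. Ocbimv22021491m to Ocbimv22021494m had 17.3 coding TPM in the female tip, against 282 in the male tip and 21.9, 18.4 and 20.8 in the sections, so here the male tip was high, 16.3-fold above the female tip.

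Among single transcripts with whole counts, Ocbimv22002225m had the highest level of those named for a large margin of the female tip over all male arm libraries. It had 333 coding TPM in the female tip from 1702 counts, against 16.3 in the male tip from 88 counts and 12.6, 11.4 and 28.7 in the sections. It was 20.4-fold higher (95% counting interval 16.5 to 25.6), and the hatchling, at 153, was the next highest library. Ocbimv22014869m had 7.85 coding TPM in the female tip and 0.424 in the male tip, and Ocbimv22010594m 18.6 and 2.4, with the sections at or below 1.05 and 1.7.

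Ocbimv22003415m, with whole counts, had a neighbour that went the other way. It had 85 counts in the female tip and none in any male arm library, which ranked it first by margin. Its neighbour Ocbimv22003416m had none in the female tip and 5.13 coding TPM in the male tip, with 13.5, 1.54 and 4.1 in the sections. Summed, the pair had 10.5 in the female tip and 5.13 in the male tip, and 13.5 in the distal section, so the female tip no longer stood above the males. Of the 17 whole-count transcripts with no count in the male tip and at least 20 in the female tip, 4 had such an opposite neighbour. Of the 10 with no count in the female tip and at least 20 in the male tip, 6 did. Over all whole-count transcripts past 2-fold, 11 of 440 higher and 13 of 175 lower ones had an opposite neighbour.

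Of transcripts with whole counts that were low in the female tip and lay outside the blocks, Ocbimv22037972m had the largest margin. It had 1.31 coding TPM in the female tip from 2 counts, against 41.9 in the male tip from 67 counts and 200, 510 and 408 in the sections. It was 32-fold lower, with a wide interval of 8.51 to 269 set by the 2 counts. Ocbimv22005969m had 1.83 in the female tip, against 34.6 in the male tip and 82.3, 106 and 101 in the sections, and Ocbimv22002703m had 12.6, against 128 and 405, 364 and 434. In all 3 the male tip was itself the lowest of the male libraries, so both tips lay on the same side of the sections.

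The male tip alone was low for Ocbimv22035765m and alone high for Ocbimv22006923m, both with whole counts. Ocbimv22035765m had 355 coding TPM in the female tip, against 15.3 in the male tip, and 541, 1158 and 851 in the sections. Ocbimv22006923m had 12.1 in the female tip, against 173 in the male tip and 15.3, 17.9 and 7.19 in the sections. For Ocbimv22006923m the female tip lay within the range of the sections, and for Ocbimv22035765m it lay below them but nearer to them than to the male tip. The tips differed 23.2-fold for Ocbimv22035765m and 14.3-fold for Ocbimv22006923m. The largest difference in level among transcripts higher in the female tip, 1732 coding TPM in the female tip and 91.2 in the male tip for Ocbimv22012348m, was of this kind too, with 1413 to 2528 in the sections.

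The 5 most abundant coding transcripts of the female tip were Ocbimv22009989m, Ocbimv22007954m, Ocbimv22016906m, Ocbimv22010023m and Ocbimv22024494m, at 19820, 7806, 7764, 6899 and 6473 coding TPM. In the male tip they had 13819, 14736, 8221, 4227 and 14132. Only Ocbimv22024494m was past 2-fold, 2.18-fold lower in the female tip. Both tips stood above all sections, which had 1775, 1331 and 3828 coding TPM of it.

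Gene names were known for 411 compared transcripts, from the portions used here of the Trinotate annotation and of the study's list of epigenetic factors. Of these, 14 (3.41%) were 2-fold higher and 18 (4.38%) lower in the female tip, against 6.58% higher and 3.52% lower among all compared transcripts, and 9 of the 32 had whole counts. The list of epigenetic factors and the marker lists were chosen with earlier results known and are described, not tested.

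The largest annotated difference with whole counts was in a pair of ferroxidase-like transcripts with adjacent IDs. HEPH, annotated as hephaestin, a copper enzyme that oxidises iron in mammals, had 128 coding TPM in the female tip, against 22.8 in the male tip, 56.4, 38.7 and 63.7 in the sections and 37.5 in the hatchling. It was 5.64-fold higher (95% counting interval 4.65 to 6.87). HEPHL, a hephaestin-like transcript, had 127 coding TPM in the female tip, against 26.9 in the male tip and 54.4, 41.8 and 73.9 in the sections, and was 4.74-fold higher. For both, the female tip was above every other library and the male tip below every other one.

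TRPA1, annotated by the fly channel of that name, which in Drosophila responds to noxious heat and irritants, had 12.3 coding TPM in the female tip from 48 counts, against 3.91 in the male tip from 16 counts. The sections had 4.94, 6.78 and 7.42. It was 3.15-fold higher (95% counting interval 1.76 to 5.94), and its second annotated transcript, Ocbimv22004852m, had 12.2 and 6.86 in the female and male tips, a log2 ratio of 0.75 that is under 2-fold. EF1G, a subunit of translation elongation factor complexes, had 7.08 in the female tip, 1.71 in the male tip and 2.33 to 3.04 in the sections. RNLS, annotated as the flavin enzyme renalase, had 11.5 in the female tip, 5.15 in the male tip and 4.64 to 5.04 in the sections. Its log2 ratio of 1.02 was 0.83 with TMM scaling.

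SMYD3.2 and SMYD3.3, listed as H3K4 methyltransferases, were also higher in the female tip, but here it was the male tip that stood apart. SMYD3.2 had 29.3 coding TPM in the female tip, against 10.4 in the male tip and 33.4, 47.8 and 57.7 in the sections. SMYD3.3 had 21.2, against 8.54 and 21.6, 20.2 and 23.5. They belong to a run of 4 transcripts with consecutive IDs, all with whole counts, in which the male tip was the lowest arm library. The hatchling was lower still, with 17.6 coding TPM over the run, against 99.6 in the female tip and 41.1 in the male tip. The other listed SMYD3 transcripts were under 2-fold, with 28.7 and 6.49 coding TPM for SMYD3 and SMYD3.1 in the female tip, against 18.1 and 6.59 in the male tip.

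Both annotated whole-count transcripts on the lower side had few counts. EED, a core subunit of the Polycomb complex that writes H3K27me3, had 4.44 coding TPM in the female tip from 10 counts, against 11.5 in the male tip from 27 counts and 6.09, 6.73 and 7.48 in the sections. It was 2.6-fold lower (95% counting interval 1.22 to 6.02). ATD3B, annotated as a mitochondrial ATPase, had 2.16 in the female tip, 5.66 in the male tip and 7.75 to 8.17 in the sections, and was 2.62-fold lower. With the deposited TPM its log2 ratio was -0.83, under 2-fold. Deposited TPM of coding transcripts are lower than coding TPM, so the same pseudocount of 1 weighs more in that ratio.

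**Figure D4:**
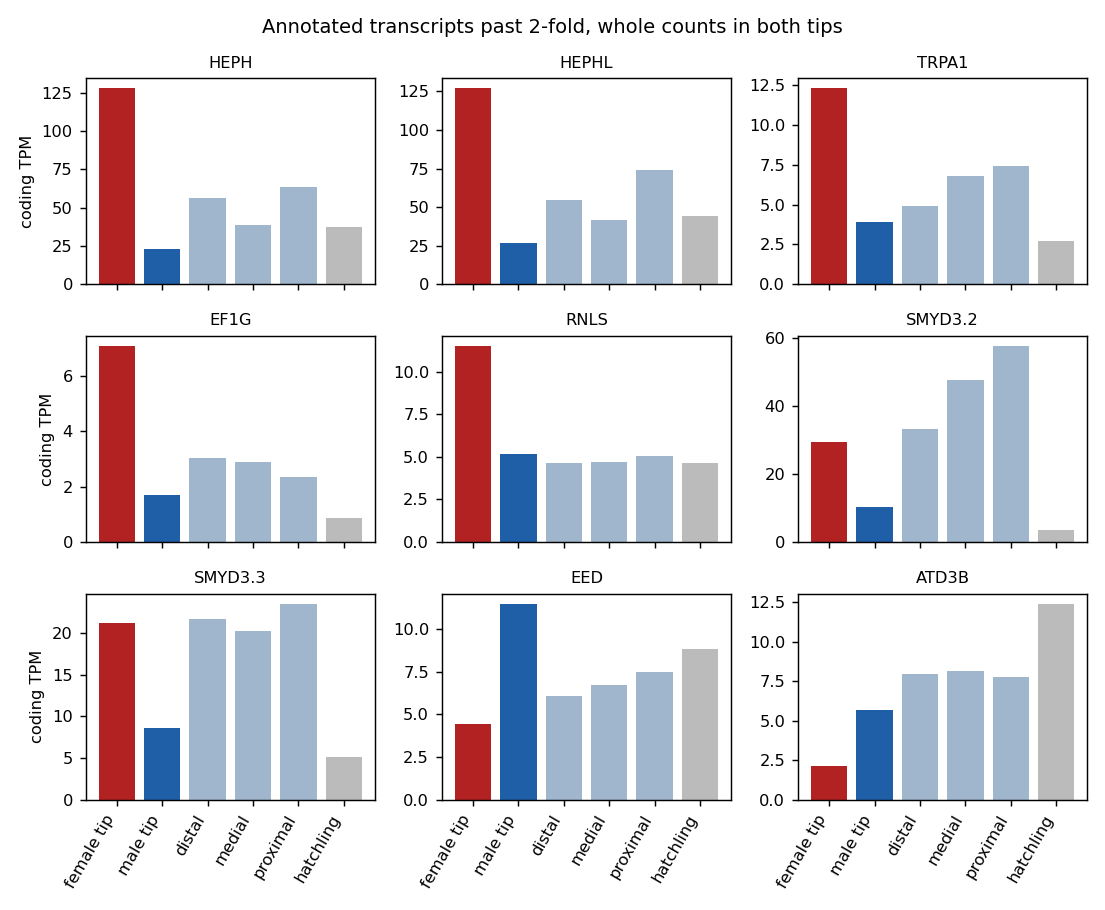
Bars give coding TPM (y axis, from 0) in the female tip, the male tip, the 3 sections and the hatchling (x axis, 1 library each) for the 9 annotated transcripts past 2-fold with whole counts in both tips. HEPH, HEPHL, TRPA1, EF1G and RNLS are highest in the female tip, SMYD3.2 and SMYD3.3 are low in the male tip among the arm libraries, and EED and ATD3B are lowest in the female tip.

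The other 23 annotated transcripts past 2-fold had divided reads. For 22 of them consecutive IDs with non-whole counts could be summed, and 20 were in a run whose sum was under 2-fold. Some of the 22 were in the same run and had the same sum. Runs held 2 to 14 IDs and were summed without regard to gene. A sum under 2-fold can thus come from adding other genes, and whether reads were divided within a run was not tested. Both exceptions were SL9A2, annotated as a sodium-proton exchanger of cell membranes, whose run of 4 IDs had a summed log2 ratio of -2.15. Its transcript Ocbimv22028269m had 0.668 coding TPM in the female tip, against 26.8 in the male tip and 3.69, 6.67 and 3.57 in the sections. AP2A2, a clathrin adaptor subunit with 0.278 and 16.3 coding TPM for Ocbimv22000296m in the female and male tips, had a summed log2 ratio of 0.30.

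Of the 150 listed epigenetic factor transcripts, 127 had enough counts, and 5 (3.94%) were higher and 10 (7.87%) lower in the female tip, against 6.58% and 3.52% of all compared transcripts. Their median log2 ratio was 0.10, against 0.14 for all. Apart from EED, SMYD3.2 and SMYD3.3, these were transcripts of genes with several listed ones. KDM8.1 and KDM8.2, listed as erasers of H3K36 methylation and assigned to 1 gene, had 15.5 and 32 coding TPM in the female tip, against 39.5 and 10.5 in the male tip, and together 47.4 against 50. DNMT3B, a DNA methyltransferase, had 3.13 in the female tip and no count in the male tip, while DNMT3B.1 had 3.1 and 5.94, so the gene had 6.23 and 5.94. Of 9 genes with several listed transcripts and 1 or more past 2-fold, 8 were under 2-fold when summed. The exception was KMT2E, a Trithorax family protein that reads H3K4me3, with 15.5 coding TPM in the female tip, against 6.19 in the male tip and 4.47, 5.76 and 4.39 in the sections, a summed log2 ratio of 1.20. The run of 4 consecutive IDs that holds it and unlisted IDs, all with non-whole counts, had a summed log2 ratio of 0.08. Whether the unlisted IDs belong to KMT2E or shared reads with it was not tested. The maintenance methyltransferase DNMT1 had 16.6 coding TPM in the female tip and 16 in the male tip, and its partner UHRF1 had 5.25 and 5.71.

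**Figure D5:**
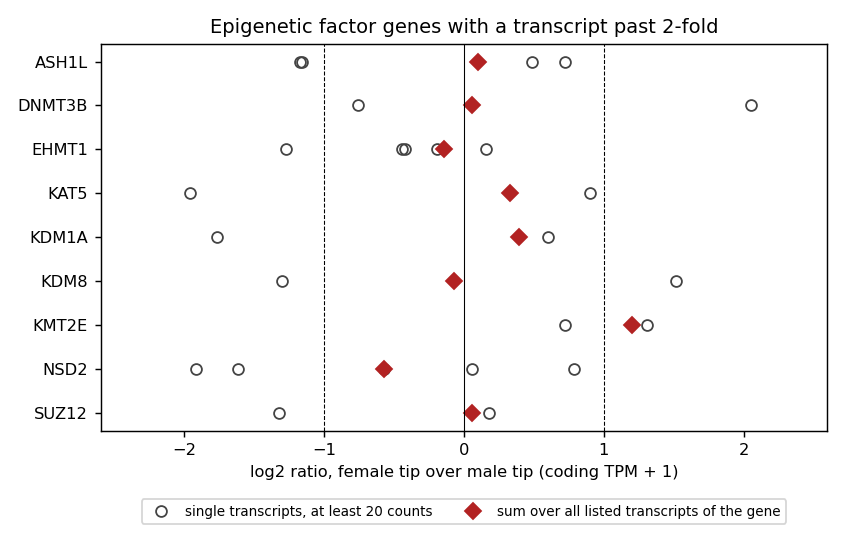
Log2 ratio of the female over the male tip (x axis, coding TPM + 1) for the 9 genes of the study's list of epigenetic factors (y axis) that have several listed transcripts and 1 or more past 2-fold (dashed lines). Open circles are single transcripts with at least 20 counts and diamonds the sum over the gene, of which KMT2E, at 1.20, is the 1 past 2-fold.

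The tissue marker lists are short, and their counts past 2-fold stand beside 6.58% higher and 3.52% lower among all compared transcripts. Of 23 synapse and neuron transcripts none was 2-fold higher and 1 was lower, with a median log2 ratio of -0.12 and a summed level of 875 coding TPM in the female tip, 911 in the male tip and 1322, 599 and 632 in the sections. None of the 6 compared muscle transcripts was past 2-fold, and they summed to 44.8 and 37.4 coding TPM in the female and male tips. None was past 2-fold among the 6 compared transcripts of cilium and flagellum, with sums of 38.6 and 36.6, or among the 4 of the cell cycle, with 52 and 54.6. The 6 stress and early response transcripts had 303 in the female tip and 310 in the male tip, with none past 2-fold. The 3 compared serpins, also with none past 2-fold, had 19.3 and 14. The 2 transcripts of TEX11, a meiosis gene in mammals, had too few counts to compare, with 0.639 and 0.505 coding TPM in sum. The part of tissue make-up in the differences between the tips was not tested.

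Depth was close in the tips, with 4895641 estimated counts in the female and 4962432 in the male tip, while the other libraries ranged from 3161353 in the distal section to 9081923 in the hatchling. A limit of 3 counts at an effective length of 1000 bases is 0.849 coding TPM in the female tip, 0.799 in the male tip and 1.33 in the distal section. Non-coding RNAs held 9.78% of the counts in the female and 11.7% in the male tip, but 63.5% and 61.6% of the deposited TPM.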

How the data were processed

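Octopus arm pieces were flash frozen and RNA was extracted with Trizol, and the authors trimmed reads with Trimmomatic 0.36, checked them with FastQC 0.11.5 and quantified them with Kallisto, per the submitters' processing notes (Kallisto's version is not given in the sources used here). The deposited files hold estimated counts, which can be fractions because reads are divided among transcripts, and TPM, which the authors' tool computed from counts and effective lengths over all targets. TPM worked out again from counts and effective lengths matched the deposited TPM to within 0.0012%. Coding TPM was then computed over the 38556 coding targets (Python 3.11.15; libraries used were pandas 2.3.3, scipy 1.17.1, numpy 2.4.6 and, for plots, matplotlib 3.10.9). Transcripts needed 20 estimated counts in either tip. A pseudocount of 1 was added, so the log2 ratio understates changes of low transcripts. A count within 0.01 of a whole number was called whole, counts under 0.01 were taken as 0, and counts of 100000 or more were not judged. With 1 library per group no model was fitted and no p-value computed. For the TMM alternative, edgeR 4.0.16 (R 4.3.3) was run on rounded estimated counts of the 5 arm libraries.

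Transcripts were named by rule. Per direction, these were the 10 whole-count and 4 shared-count transcripts with the largest margin of the female tip over the 4 male libraries, the 6 with the largest margin of the male tip alone, and the 5 with the largest difference in level, of which the text gives the clearest. Added were all listed genes past 2-fold, DNMT1, UHRF1 and the 5 most abundant. Stretches of IDs, transcripts at 0 in 1 tip and annotated transcripts outside the lists were chosen after their values were seen. Members and lists were chosen with earlier results of these data known. The RefSeq gene table matched no target ID, so no product names, coordinates or sequences are given. Clusters of the study were not used here.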

Additional observations from a re-analysis of the deposited data

How the results depend on the processing

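The counts of transcripts past 2-fold moved with the minimum, the threshold and the treatment of shared reads. Values are given for 2-fold higher, 2-fold lower, female tip above, female tip below, only the male tip below and only the male tip above, in this order, against 1301, 696, 848, 392, 391 and 264. With a minimum of 50 counts they were 769, 385, 507, 232, 231 and 134, and with no minimum 3669, 2375, 2646, 734, 667 and 1350. At 4-fold they were 288, 220, 210, 136, 70 and 68. With whole counts only they were 440, 175, 255, 124, 179 and 51, and with consecutive IDs summed 677, 295, 439, 179, 227 and 109. These 2 settings have a smaller base, with 7768 transcripts for whole counts and 14061 summed units, against 19764 transcripts. Changing the minimum changes the base too. A minimum of 10 counts gave 431 for only the male tip above. The deposited TPM gave 779 higher, 417 for the female tip above and 171 for only the male tip above, and TMM scaling 488 for the female tip above and 539 for the female tip below, against 848 and 392. Deposited TPM of coding transcripts were lower than coding TPM, so the same pseudocount of 1 weighed more and shrank their log2 ratios. Requiring 2-fold from each section gave 331 above, 225 below and 159 for only the male tip above. Between medial and proximal sections, a pseudocount of 0.1, chosen after seeing the data, gave 610 higher and 646 lower in the medial section, against 383 and 412. The other alternatives, including leaving out each section, stayed within 1.5 times in size, but members changed. For only the male tip below, TMM scaling gave 374 transcripts, of which 256 were among the 391. The deposited TPM gave 323, of which 223 were. For only the male tip above, TMM scaling gave 309, of which 225 were among the 264. For the female tip below, TMM scaling kept 391 of the 392.

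Of 79 named transcripts past 2-fold, 76 stayed so with TMM scaling and 69 with the deposited TPM. All 79 stayed so with a pseudocount of 0.1, but a smaller pseudocount can only widen a ratio, so this is no check. When consecutive IDs were summed, without regard to gene, 10 of 33 stayed past 2-fold. The sums turned the direction of Ocbimv22020870m (-0.03), Ocbimv22000612m (0.06), Ocbimv22038919m (0.41), KDM1A.1 (Ocbimv22009139m, 0.39), KDM8.2 (Ocbimv22032520m, -0.07), SUZ12.1 (Ocbimv22037161m, 0.15), both AP2A2 transcripts (Ocbimv22000296m and Ocbimv22000297m, 0.30) and INT5 (Ocbimv22037624m, 0.05). The cause was not tested. No paired analysis was possible because each group is 1 library.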

Other observations

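A run from Ocbimv22024015m to Ocbimv22024022m separated both tips from the sections of the second male. Its 4 transcripts past 2-fold had 540 coding TPM in the female tip and 133 in the male tip, against 20.7 distally, 2.48 medially and 8.59 proximally. The hatchling library had 31.7. The female tip was 4.05-fold above the male tip, and counts of these transcripts were not whole. The run was chosen after its values were seen, and the tips and sections come from different animals.

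Some transcripts past 2-fold stood next to another in the same direction among the compared transcripts, with an ID at most 3 numbers away. They were 326 of the 1301 higher (25.1%) and 131 of the 696 lower ones (18.8%). Pairs with a compared transcript of another direction, or under 2-fold, between them were not counted. The same share was not counted for the medial and proximal sections. The IDs carry no position in the sources used here, so whether such runs are neighbouring genes, copies or isoforms was not tested.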
